A study of Mus musculus with 9 samples.

Results

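Mitosis genes encode the proteins that condense, align and separate chromosomes and then divide the cell. The group described here was a written list of 41 such genes, of which 40 had at least 1 probe set carrying their symbol alone in the platform annotation, out of 18193 genes measured that way. Ccnb1, the cyclin B1 gene, had no such probe set and was not analysed here. A gene with several probe sets was represented by the one with the highest mean over all arrays. RNA of frozen spleen tissue was read on Affymetrix mouse arrays, each sample on an array of its own. There were 5 lymphomas of the spleen, from transgenic mice of the genotype Sca1-MALT1, and 4 spleens of healthy wild-type mice. Sca1 is a surface protein of blood stem and progenitor cells, and MALT1 is a paracaspase that carries antigen receptor signals to NF-kB. The sources used here do not give the strain, the age, the transgene's promoter or cell of expression, or whether each sample came from its own animal. A p-value therefore sets a group difference against the spread among these samples, which may not be the spread among mice. The few arrays limit its precision.

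Dividing cells make most mitotic proteins shortly before they are needed and destroy many of them at the end of division. Cyclin A and cyclin B bind the kinase CDK1 and drive the cell into mitosis, the kinetochore ties chromosomes to the spindle, the spindle checkpoint holds the cell until every chromosome is attached, and the anaphase-promoting complex (APC/C) then marks cyclin B for destruction. The same transcripts are low in resting cells, and in the spleen they are made by germinal centre B cells, plasmablasts, activated T cells and, in the mouse, by the red cell and granulocyte precursors of the red pulp.

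The mitosis genes separated individual lymphomas rather than lymphoma from wild-type spleen. On the array of lymphoma 1 all 40 genes stood above all 4 wild-type spleens, by a median log2 value of 1.72 over the wild-type mean (3.29-fold), and on that of lymphoma 2 all 40 did so, by a median of 1.48 (2.79-fold). In lymphoma 4 the reverse was seen: 37 of 40 genes lay below all wild-type spleens, with a median of -1.21 (0.434 of the wild-type level). Lymphomas 3 and 5 lay within the wild-type range for 33 and 24 genes, with medians of -0.075 and 0.045. Over all genes, 30.6% stood above all wild-type spleens in lymphoma 1 and 29.3% in lymphoma 2. In lymphoma 4, 27.4% of all genes lay below them, and in lymphomas 3 and 5, 50.2% and 40.8% lay within their range. Values are on a log2 scale, on which 1 unit is a 2-fold difference.

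The comparison of the groups called none of the mitosis genes. Limma called 0 of 40 at an adjusted p under 0.05, against 0.715% of all genes measured, and the lowest adjusted p among them was 0.114 for Racgap1. At an unadjusted p under 0.05 it had 2 of 40 higher in lymphoma (Racgap1 and Kif2c) and 0 lower, where 6.69% of all genes passed as higher and 8% as lower. All lymphomas lay above all wild-type spleens for 1 of 40, again Racgap1, against 3.29% of all genes, and below them for 0, against 4.04%. All 40 differences, lymphoma minus wild-type, were positive, against 50.3% of all genes, with a median of 0.40 (0.016 to 0.89) against 0.0012 for all genes. The common direction needed the 2 high arrays. Without lymphomas 1 and 2, which were picked from these same values, limma called 0 of 40. The differences were then positive for 3 genes and negative for 37 (52.5% of all genes were positive), and their median was -0.39. The lymphomas left were unlike each other. Averaged over the 40 genes, lymphoma 4 stood at -1.11 relative to the wild-type mean and lymphomas 3 and 5 at -0.063 and 0.046. In bulk tissue, fewer cells of a type and less RNA per cell cannot be told apart.

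**Figure D1:**
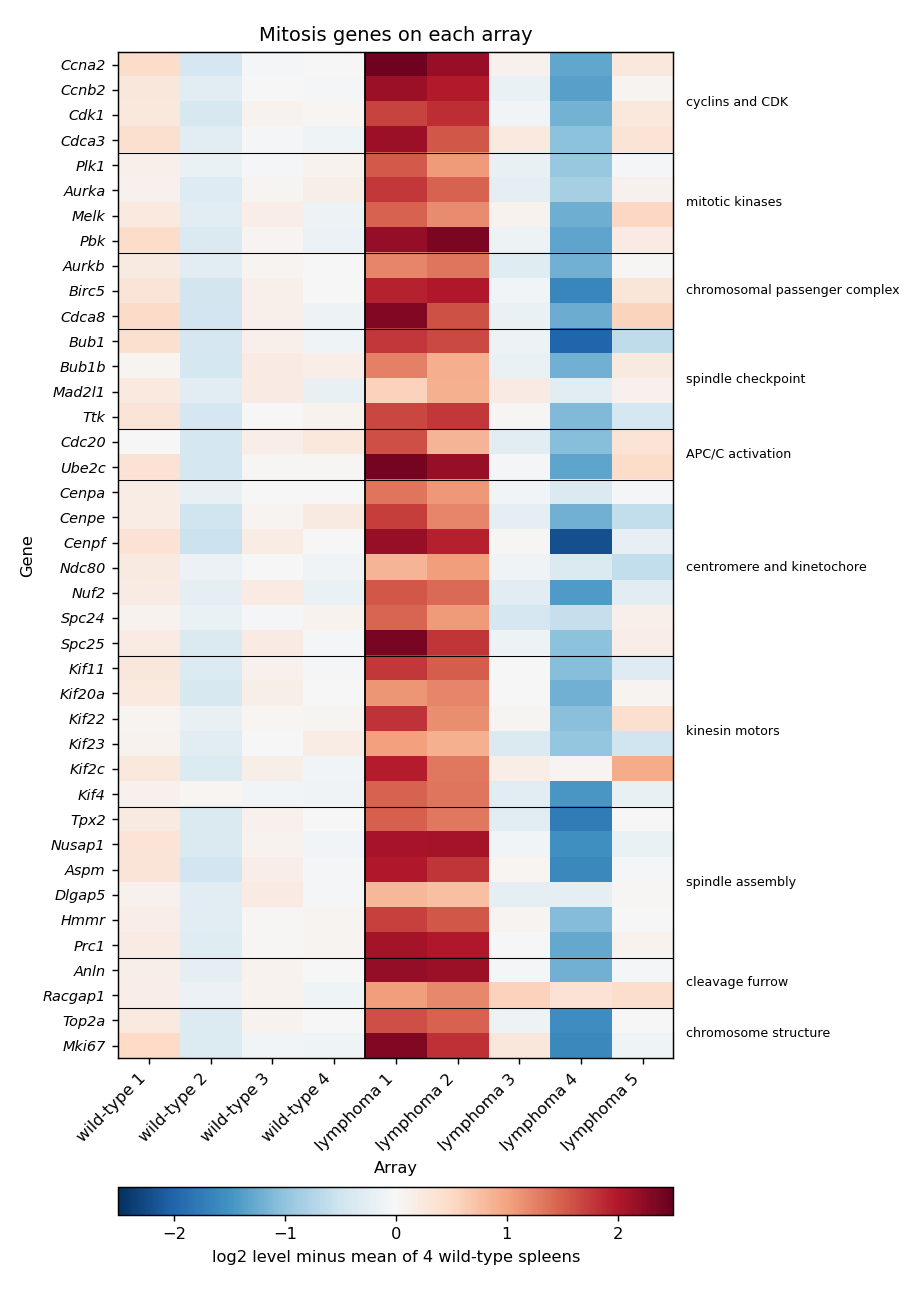
Heat map of the 40 mitosis genes (rows, grouped by role) on the 9 arrays (columns). Colour gives the log2 level minus the mean of the 4 wild-type spleens, red for higher and blue for lower. Lymphomas 1 and 2 are red in every row, and lymphomas 3 and 5 are close to the wild-type arrays. Lymphoma 4 is blue in nearly every row, with 37 of 40 genes below all wild-type spleens (27.4% of all genes).

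The pattern was shared across the whole group. Lymphomas 1 and 2 were the 2 highest arrays of 9 for 40 of 40 mitosis genes, and for 1621 of 18193 genes (8.91%) over the whole table. Lymphoma 1 was the highest for 30 genes and lymphoma 2 for 10 (18.4% and 14.6% of all genes). Lymphoma 4 was the lowest for 36, wild-type spleen 2 for 3 and lymphoma 5 for 1 (10.5%, 7.36% and 10.2% of all genes). The distance between the lower of the 2 high lymphomas and the next array ran from 0.33 for Mad2l1 to 2.01 for Anln. Spread among lymphomas was wider than among wild-type spleens for all 40 genes and for 78.9% of all genes. The median SD of a mitosis gene was 1.24 among lymphomas and 0.26 among wild-type spleens, against 0.20 and 0.11 for all genes.

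Wild-type spleens kept an order of their own within a narrower range. Wild-type spleen 2 was the lowest of the 4 for 39 of 40 mitosis genes and wild-type spleen 1 the highest for 32. Over all 18193 genes these counts were 3611 and 3779. Averaged over the 40 genes, the level was 8.92, 8.36, 8.76 and 8.67 in wild-type spleens 1 to 4 and 10.38, 10.18, 8.61, 7.56 and 8.72 in lymphomas 1 to 5. Over all probe sets the array medians lay between 6.88 and 6.97.

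Mitosis genes as a class are known for a promoter element called the cell cycle genes homology region (CHR), through which the DREAM complex holds them silent in resting cells, and for CCAAT boxes, bound by NF-Y. RefSeq promoters (GRCm38.p6), 250 bases before to 50 after a gene's start, were at hand for 34 of the 41 genes, 35 promoters in all. The letters TTTGAA, the usual CHR core, occurred on either strand in 27 of these 35 promoters (77.1%), against 13.4% of 18109 promoters of genes on the array and 17.9% of all 32851. Within 50 bases of the start they occurred in 25 of 35 (71.4%), against 3.42% for genes on the array. CCAAT occurred in 27 of 35 (77.1% against 37.4%), at least 2 times in 19 (54.3% against 12.8%), and together with TTTGAA in 24 (68.6% against 5.23%). The median GC content was 58.7% for the mitosis genes and 58.3% for genes on the array. A match is a run of letters, not a proven binding site.

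The sequences below show the arrangement for a cyclin-dependent kinase, an APC/C activator, a topoisomerase, an APC/C enzyme, a kinesin, the proliferation marker Mki67 and, as a promoter without either run of letters, Mad2l1. Each is written 5′ to 3′ on the gene's strand and ends 1 base before the start, except Mki67, which covers 200 to 81 bases before it. Capitals mark TTTGAA or its reverse complement TTCAAA and CCAAT or its reverse complement ATTGG.
Cdk1: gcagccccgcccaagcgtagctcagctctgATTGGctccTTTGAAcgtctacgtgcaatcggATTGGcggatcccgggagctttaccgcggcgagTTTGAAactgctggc
Cdc20: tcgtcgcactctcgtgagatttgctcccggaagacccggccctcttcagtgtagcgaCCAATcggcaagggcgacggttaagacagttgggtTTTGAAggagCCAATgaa
Top2a: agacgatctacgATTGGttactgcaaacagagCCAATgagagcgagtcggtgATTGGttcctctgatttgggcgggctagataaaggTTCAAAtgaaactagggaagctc
Ube2c: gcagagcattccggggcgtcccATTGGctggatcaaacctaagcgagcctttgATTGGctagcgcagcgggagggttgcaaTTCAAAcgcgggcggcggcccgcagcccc
Kif22: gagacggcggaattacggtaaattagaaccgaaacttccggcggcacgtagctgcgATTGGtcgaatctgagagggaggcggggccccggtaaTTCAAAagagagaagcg
Mki67: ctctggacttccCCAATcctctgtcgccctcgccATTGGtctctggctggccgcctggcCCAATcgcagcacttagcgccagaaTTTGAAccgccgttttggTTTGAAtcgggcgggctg
Mad2l1: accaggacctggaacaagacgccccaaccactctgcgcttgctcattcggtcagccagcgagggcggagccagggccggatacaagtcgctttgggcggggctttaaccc
The windows are chr10:69352913-69353022 (minus strand) for Cdk1, chr4:118437344-118437453 (minus strand) for Cdc20, chr11:99024190-99024299 (minus strand) for Top2a, chr2:164769819-164769928 (plus strand) for Ube2c, chr7:127042421-127042530 (minus strand) for Kif22, chr7:135716460-135716579 (minus strand) for Mki67 and chr6:66535111-66535220 (plus strand) for Mad2l1. In all but Mki67 and Mad2l1 a TTTGAA or TTCAAA run begins within 30 bases of the start, with at least 1 CCAAT or ATTGG further upstream. In the Mki67 window the 2 TTTGAA runs begin 116 and 98 bases before the start. Of the 33 TTTGAA matches in the 35 promoters, 1 overlapped a CCAAT match.

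Of the 34 genes with a promoter entry, 26 held TTTGAA and 8 did not (Birc5, Bub1, Ccnb1, Cenpe, Mad2l1, Melk, Nuf2 and Nusap1). The range of a gene over the 9 arrays had a median of 2.90 (log2) for the 26 with the run and 2.97 for the 7 without it that were measured. The ranges of both sets overlapped, from 1.37 to 4.39 and from 1.18 to 3.74. In all, 10 motifs were searched on both strands. The CHR variants TTTAAA and TTCGAA occurred in 28.6% and 8.57% of the mitosis promoters (10.4% and 1.89% on the array). E2F-type runs were rare in both sets. TTTCGCGC occurred in 1 of 35 (2.86% against 0.48% on the array), and TTTGGCGC, TTTCCCGC and GGCGGGAA in 0 of 35 (0.79%, 1.58% and 3.18%). With shares this low, 35 promoters are too few to tell a lower share from a like one. The TATA run TATAAA occurred in 1 (9.77%) and the E-box CACGTG in 2 (8.72%).

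Cyclins and their kinase split the lymphomas in the way of the whole group. Ccna2, cyclin A2, which acts from DNA replication into mitosis, had log2 levels of 9.97, 9.09, 9.46 and 9.48 in wild-type spleens 1 to 4 and 11.94, 11.67, 9.61, 8.20 and 9.77 in lymphomas 1 to 5. Lymphomas 1 and 2 lay above all wild-type spleens, lymphoma 4 below all of them and lymphomas 3 and 5 among them. The group difference was 0.74 (95% interval -0.82 to 2.29, limma adjusted p 0.668). Cyclin B2 (Ccnb2, 0.54), the mitotic kinase Cdk1 (0.51) and Cdca3 (0.65), a trigger of mitotic entry, did not pass either. Relative to the wild-type mean these 3 ran from 1.68 to 2.14 in lymphoma 1, 1.54 to 1.99 in lymphoma 2, -0.16 to 0.25 in lymphoma 3, -1.35 to -1.03 in lymphoma 4 and 0.065 to 0.35 in lymphoma 5.

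Other mitotic kinases followed the same arrays. Pbk, a kinase of dividing cells, stood at 9.30, 8.48, 8.91 and 8.70 in wild-type spleens and 11.04, 11.20, 8.72, 7.54 and 9.05 in lymphomas, so lymphoma 2 was the highest and lymphoma 4 lay below the wild-type range (difference 0.66, limma adjusted p 0.707). The differences of Plk1, which acts at centrosomes and kinetochores, Aurka, the centrosome kinase, and Melk were 0.29, 0.46 and 0.41. Relative to the wild-type mean these 3 ran from 1.47 to 1.78 in lymphoma 1, 1.07 to 1.47 in lymphoma 2, -0.22 to 0.085 in lymphoma 3, -1.21 to -0.83 in lymphoma 4 and -0.050 to 0.52 in lymphoma 5. None of the 4 kinases passed the test. For Aurka the SD was 1.12 among 5 lymphomas and 0.22 among 4 wild-type spleens.

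The chromosomal passenger complex corrects faulty attachments and later marks the division plane. Its subunit gene Cdca8 (borealin) had levels of 10.66, 9.70, 10.30 and 10.05 in wild-type spleens and 12.50, 11.77, 10.01, 8.93 and 10.74 in lymphomas. Lymphoma 1 stood highest, lymphoma 5 just above the wild-type range and lymphoma 4 below it (difference 0.61, 95% interval -0.81 to 2.03, limma adjusted p 0.699). Its kinase Aurkb differed by 0.22 and survivin, Birc5, by 0.51, neither of which passed. Aurkb and Birc5 stood at -1.21 and -1.63 in lymphoma 4 relative to the wild-type mean.

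Spindle checkpoint genes differed in how far they moved. Bub1, a checkpoint kinase, had levels of 8.28, 7.46, 8.02 and 7.79 in wild-type spleens and 9.65, 9.53, 7.75, 5.90 and 7.25 in lymphomas, a range of 3.74 log2 units over the 9 arrays. Here lymphoma 5 also lay below all wild-type spleens, and the group difference was close to 0 (0.13, 95% interval -1.45 to 1.71). Mad2l1, which encodes the checkpoint protein that binds CDC20, ranged over only 1.18 units, with 10.30, 9.79, 10.24 and 9.86 in wild-type spleens and 10.63, 10.94, 10.25, 9.75 and 10.16 in lymphomas. Lymphomas 1 and 2 were still its highest arrays, lymphomas 3 and 5 lay within the wild-type range and lymphoma 4 lay just below it (difference 0.30, limma adjusted p 0.589). Bub1b differed by 0.20 and the kinase Ttk by 0.39, and neither passed. In lymphoma 5 Ttk was below the wild-type mean by the same measure (-0.44) and Bub1b above it (0.22).

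An activator and an enzyme of the APC/C behaved alike. Cdc20 had levels of 10.60, 10.17, 10.77 and 10.86 in wild-type spleens and 12.22, 11.45, 10.31, 9.54 and 10.94 in lymphomas. Ube2c, the ubiquitin-conjugating enzyme of the complex, stood at 8.68, 7.89, 8.36 and 8.36 in wild-type spleens and at 10.71, 10.51, 8.30, 7.01 and 8.79 in lymphomas. For both, lymphomas 1 and 2 were above and lymphoma 4 below the wild-type range, and lymphoma 5 lay slightly above it. The differences were 0.29 and 0.74, with limma adjusted p-values of 0.816 and 0.665. Neither passed.

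At centromere and kinetochore, Cenpa, the histone variant that marks centromeres, stood at 9.97, 9.61, 9.79 and 9.78 in wild-type spleens and 11.13, 10.86, 9.71, 9.43 and 9.77 in lymphomas (difference 0.39). Lymphomas 1 and 2 were higher than the rest and lymphoma 4 was the lowest array, by a smaller distance than for most of the group. Cenpf, a large kinetochore protein, had the widest range of all 40 genes, 4.39 log2 units, from -2.21 in lymphoma 4 to 2.18 in lymphoma 1 relative to the wild-type mean. The 4 subunits of the NDC80 complex, which grips microtubules, differed by 0.16 (Ndc80), 0.21 (Nuf2), 0.33 (Spc24) and 0.63 (Spc25), and the motor Cenpe by 0.17 and Cenpf by 0.35. Relative to the wild-type mean these 6 ran from 0.85 to 2.38 in lymphoma 1, 1.05 to 1.95 in lymphoma 2, -0.41 to 0.032 in lymphoma 3, -2.21 to -0.37 in lymphoma 4 and -0.62 to 0.17 in lymphoma 5. Ndc80 was the 1 mitosis gene with its lowest value in lymphoma 5. None of the 7 centromere and kinetochore genes passed.

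Kinesin motors push and pull microtubules and chromosomes. Kif22, a chromosome arm motor, had levels of 10.84, 10.59, 10.83 and 10.86 in wild-type spleens and 12.59, 11.95, 10.86, 9.74 and 11.18 in lymphomas (difference 0.48), with wild-type spleen 2 set apart from the other three. Kif2c, which dismantles microtubules at kinetochores, had the largest difference of the group, 0.89 (95% interval 0.075 to 1.71), at an unadjusted limma p of 0.0355 and an adjusted p of 0.299. It stood at 8.86, 8.26, 8.75 and 8.53 in wild-type spleens and 10.57, 9.92, 8.78, 8.67 and 9.54 in lymphomas, so lymphoma 5 was also above the wild-type range, and lymphoma 4 was within it rather than below. The mean of its 4 probe sets differed by 0.37. Without lymphoma 1 the difference of the probe set used here was 0.62, and without lymphomas 1 and 2 it was 0.39. Kif23, a motor of the central spindle, had the smallest difference, 0.016, with 9.82, 9.45, 9.74 and 9.93 in wild-type spleens and 10.77, 10.62, 9.37, 8.77 and 9.23 in lymphomas: 2 lymphomas above all wild-type spleens and 3 below. The differences of Kif11, which pushes spindle poles apart, Kif20a, a motor of the central spindle, and Kif4, a motor bound to chromosomes, were 0.38, 0.24 and 0.18. Relative to the wild-type mean these 3 ran from 1.11 to 1.76 in lymphoma 1, 1.23 to 1.52 in lymphoma 2, -0.26 to 0.012 in lymphoma 3, -1.46 to -1.05 in lymphoma 4 and -0.33 to 0.061 in lymphoma 5.

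Spindle assembly genes were again highest in lymphomas 1 and 2. Prc1, which bundles the central spindle, stood at 9.29, 8.80, 9.13 and 9.15 in wild-type spleens and 11.17, 11.10, 9.11, 7.82 and 9.18 in lymphomas (difference 0.58). Tpx2, which activates Aurora A on the spindle, stood at 8.65, 8.07, 8.54 and 8.44 in wild-type spleens and at 9.92, 9.75, 8.15, 6.67 and 8.44 in lymphomas (difference 0.16). Both had the 2 high lymphomas and the low lymphoma 4. The microtubule binding proteins Nusap1 (0.47), Aspm (0.44) and Hmmr (0.45) ranged over 3.62, 3.62 and 2.79 log2 units. Dlgap5 (0.23) ranged over 1.08, the narrowest of the 40 genes, and had its lowest value in wild-type spleen 2. None of the 6 spindle assembly genes passed.

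Racgap1 was the 1 mitosis gene above the wild-type range in lymphomas 3 and 4 as well. It encodes a subunit of centralspindlin that directs the cleavage furrow. Its levels were 8.12, 7.79, 8.04 and 7.84 in wild-type spleens and 8.99, 9.16, 8.52, 8.31 and 8.38 in lymphomas, so all 5 lymphomas were higher than all 4 wild-type spleens, lymphoma 4 included. That held for 1 of the 40 mitosis genes and for 3.29% of all genes, so 1 such gene does not set the group apart. The Racgap1 means were 7.95 ± 0.16 (SD, n = 4) and 8.67 ± 0.38 (SD, n = 5). The difference was 0.73 (95% interval 0.31 to 1.14, limma adjusted p 0.114), which did not pass. Its adjusted p lay between 0.0548 and 0.343 in the alternatives, the lowest of them without lymphomas 1 and 2, where the difference was 0.46. Of its other probe sets 1 differed by 0.56 with overlapping groups, and 1 with a mean level of 3.21 by -0.032, and the mean of all 3 differed by 0.42. Anln, the furrow scaffold anillin, did not share this (difference 0.61): it stood at 2.20, 2.16 and -1.21 in lymphomas 1, 2 and 4 relative to the wild-type mean.

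Chromosome structure genes followed the order of the whole group. Mki67, whose product coats mitotic chromosomes and is the usual stain for dividing cells, had levels of 12.16, 11.31, 11.59 and 11.55 in wild-type spleens and 13.97, 13.49, 11.93, 10.04 and 11.54 in lymphomas. Top2a, which untangles sister chromatids, stood at 10.80, 10.20, 10.64 and 10.57 in wild-type spleens and at 12.17, 12.03, 10.43, 8.99 and 10.57 in lymphomas. For each, lymphomas 1 and 2 were above and lymphoma 4 was more than 1 log2 unit below the wild-type spleens, and lymphomas 3 and 5 overlapped them. The Mki67 means were 11.65 ± 0.36 (SD, n = 4) in wild-type spleens and 12.19 ± 1.58 (SD, n = 5) in lymphomas. The Mki67 difference had a 95% interval of -1.03 to 2.11 and that of Top2a one of -1.01 to 1.59, and neither passed (limma adjusted p 0.768 and 0.86).

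**Figure D2:**
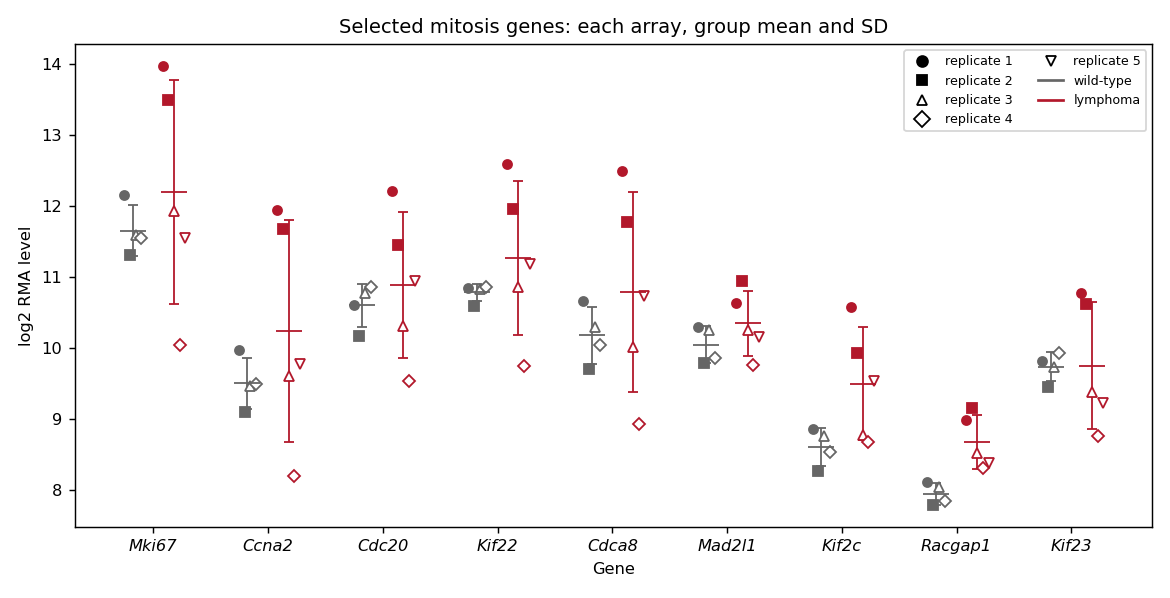
Log2 level (vertical axis) of 9 mitosis genes (horizontal axis) on each array, grey for the 4 wild-type spleens and red for the 5 lymphomas. Marker shapes give the replicate numbers, which the labels do not describe as pairs. Long ticks are group means and bars are SDs. For Mki67 the lymphomas run from 10.04 to 13.97 around wild-type values of 11.31 to 12.16. For Racgap1 every lymphoma is above every wild-type spleen, as for 3.29% of all genes.

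**Figure D3:**
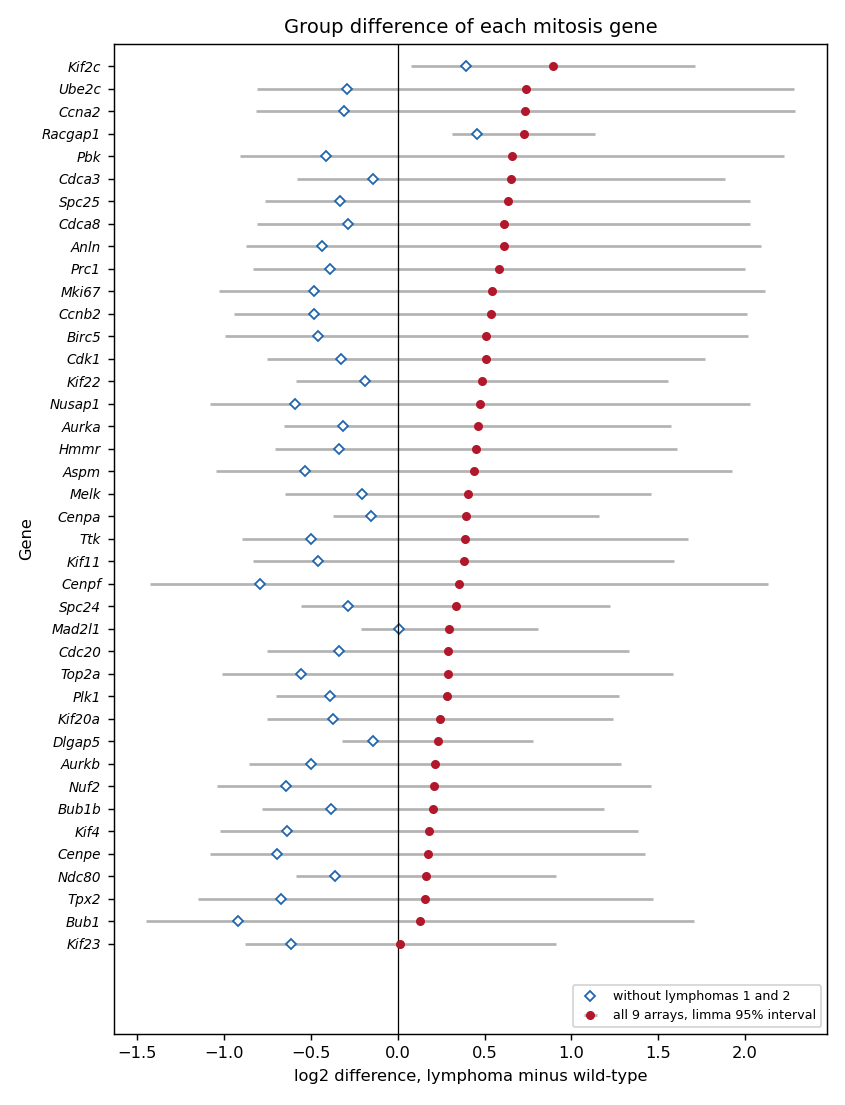
Log2 difference, lymphoma minus wild-type (horizontal axis), of the 40 mitosis genes (vertical axis). Red points with grey bars are all 9 arrays with limma 95% intervals, and open blue diamonds are the differences without lymphomas 1 and 2. All red points are above 0, while 37 of 40 diamonds are below it. The exceptions are Kif2c, Racgap1 and Mad2l1. Of the lymphomas behind the diamonds, lymphoma 4 averaged -1.11 relative to the wild-type mean and lymphomas 3 and 5 averaged -0.063 and 0.046.

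Further probe sets of the mitosis genes were read in the same way. The 40 genes had 87 probe sets, 26 genes more than 1, and limma over all 45037 probe sets called 0 of 87 (0.486% of all probe sets, 0.251% as higher). At an unadjusted p under 0.05 it had 4 higher, those of Racgap1 and Kif2c, and 0 lower (5.15% and 8.76% of all). All lymphomas lay above all wild-type spleens for 1 and below for 0 (2.39% and 4.08% of all), and 84 differences were positive (47.2% of all). Of 58 probe sets with a mean level above 7, close to the array median, 57 had lymphomas 1 and 2 as the 2 highest arrays and 49 had lymphoma 4 as the lowest, while 9 had another array as the lowest. Of the 29 at 7 or lower, 19 and 8 did, and their median range was 1.16 log2 units against 2.84. The part of low signal in this was not tested.

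Other genes of the pathway were read from the same test. Of 72 further mitosis genes 70 had a probe set, and limma called 0 of them. Before adjustment 2 were higher (Ncapg2 and Haspin) and 0 lower at p under 0.05, against 6.69% and 8% of all genes. Of these 70, 62 differences were positive and 8 negative (median 0.28), where 50.3% of all genes were positive. Lymphoma 1 was above all wild-type spleens for 64, lymphoma 2 for 63, and lymphoma 4 below them for 55, against 30.6%, 29.3% and 27.4% of all genes. Ncapg2, a condensin II subunit, stood at 9.65, 9.17, 9.63 and 9.09 in wild-type spleens and 11.05, 10.91, 10.42, 10.16 and 9.54 in lymphomas (difference 1.03, limma adjusted p 0.156), and the kinase gene Haspin, which prepares centromeres for the passenger complex, differed by 0.62 (limma adjusted p 0.29). In the centromere list the largest differences were those of Knl1 (0.66) and Ska1 (0.62), in the spindle list Spag5 (0.69), and in the cytokinesis list Depdc1b (0.91). The transcription regulator E2f8 differed by 1.02. None of these passed.

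Machinery that is present throughout the cell cycle spread less over the arrays, a difference that was not tested. Over 22 genes of the APC/C, cohesin and checkpoint core the median range over 9 arrays was 0.49 log2 units, against 2.93 for the 40 mitosis genes and 0.57 for all genes. Averaged over these 22 genes, lymphomas 1 and 2 were at -0.061 and 0.070 relative to the wild-type mean and lymphoma 4 at -0.11. Lymphoma 1 was above all wild-type spleens for 5 of them and below for 11, lymphoma 2 above for 12 and below for 6, and lymphoma 4 above for 2 and below for 11. Over all genes the shares were 30.6% above and 37.5% below in lymphoma 1, 29.3% and 34.2% in lymphoma 2, and 30.3% and 27.4% in lymphoma 4. Limma called 0 of 22. Before adjustment 0 were higher and 2 lower at p under 0.05, against 6.69% and 8% of all genes. The largest difference was that of the cohesin factor Pds5b (-0.42, limma adjusted p 0.0975). In a DNA replication list of 22 measured genes, lymphomas 1 and 2 were above all wild-type spleens for 22 each and lymphoma 4 below them for 18. The shares over all genes were 30.6%, 29.3% and 27.4%. Limma called 0 of these 22 replication genes, with 1 (higher) at p under 0.05 before adjustment (6.69% of all genes). The promoters of the DNA replication list held TTTGAA in 3 of 23 (13%), those of the further mitosis genes in 34 of 64 (53.1%) and those of the 22 core genes in 5 of 23 (21.7%).

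Markers of red cell precursors were high on the same 2 arrays. Of 18 such markers 16 were measured, with a mean level of 8.95, 7.43, 7.44 and 7.43 in wild-type spleens 1 to 4 and 11.77, 11.56, 8.63, 6.72 and 8.03 in lymphomas 1 to 5, and limma called 0 of 16, with 0 at an unadjusted p under 0.05. Rhag, a red cell membrane protein, stood at 7.07, 4.03, 4.48 and 4.42 in wild-type spleens and 10.49, 10.36, 6.56, 3.96 and 5.41 in lymphomas. Lymphomas 1 and 2 were the highest and lymphoma 4 the lowest for both the markers and the mitosis genes. Wild-type spleen 1 was the highest wild-type array for both means. The order differed elsewhere. In lymphoma 3 the marker mean stood at 0.81 relative to the wild-type mean and the mitosis mean at -0.063. Wild-type spleens 2, 3 and 4 had like marker means (-0.38, -0.37 and -0.39), whereas their mitosis means were -0.32, 0.081 and -0.0033. With the marker mean as a covariate, limma called 0 of 40 mitosis genes, and their differences were positive for 2 and negative for 38, against 52.7% positive over all genes. Of these, 1 positive and 14 negative ones had p under 0.05 before adjustment, where 7.36% and 6.99% of all genes did. The covariate was highest on the same 2 lymphomas as the mitosis genes. This fit therefore cannot tell the markers apart from those arrays, and genes that move together are not separate results. Dividing red cell precursors themselves express mitosis genes, and the share of the signal that came from them was not tested.

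**Figure D4:**
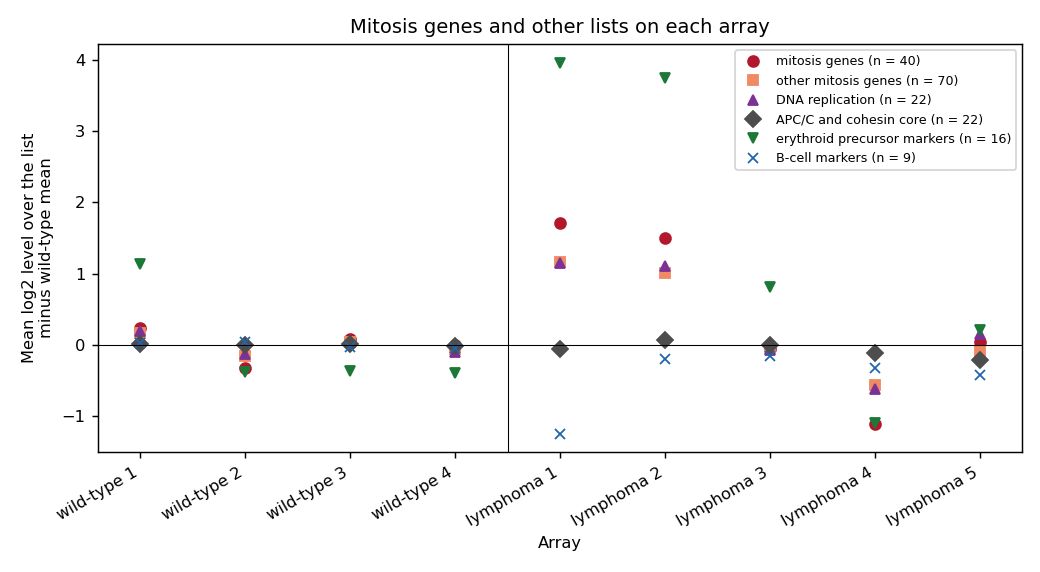
Mean log2 level of 6 gene lists on each array (horizontal axis) relative to the mean of the 4 wild-type spleens (vertical axis). Mitosis genes stand at 1.70 and 1.50 in lymphomas 1 and 2 and at -1.11 in lymphoma 4, erythroid precursor markers at 3.96, 3.74 and -1.10, and the APC/C and cohesin core stays between -0.21 and 0.070 on all arrays.

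Markers of other dividing or resident cells were read on the same arrays. Granulocyte precursor markers (6 of 7 measured) had a mean level of 11.19 in lymphoma 1 and 7.52 in lymphoma 2, between 6.47 and 7.94 in the other lymphomas, and 6.35 to 6.52 in wild-type spleens. Germinal centre B-cell markers (6 of 8) were at 7.74 to 8.31 in wild-type spleens and 6.89 to 7.83 in lymphomas, with lymphoma 2 the lowest. B-cell markers (9 of 10) were at 12.38 to 12.46 in wild-type spleens and at 11.17, 12.22, 12.26, 12.09 and 12.00 in lymphomas 1 to 5. T-cell markers (9 of 10) were at 9.79 to 10.01 in wild-type spleens, 8.55 and 8.57 in lymphomas 1 and 2, and 9.50 to 9.85 in the other 3. Plasma cell markers (7 of 7) were highest in lymphomas 5 and 3, at 10.78 and 10.44, against 9.58 to 9.70 in wild-type spleens. Macrophage markers (10 of 10) were at 9.91 to 10.17 in wild-type spleens and 11.11 to 11.71 in lymphomas, and limma called 8 of the 10 as higher (0.407% of all genes). Neutrophil markers (8 of 9) had mean levels of 6.75 to 7.48 in wild-type spleens and 12.80, 9.51, 8.61, 7.10 and 9.40 in lymphomas 1 to 5, and megakaryocyte and platelet markers (7 of 9) of 7.98 to 9.05 and 11.58, 9.66, 9.86, 7.38 and 10.12. Endothelial and stromal markers (9 of 10) were at 9.33 to 9.67 in wild-type spleens and 9.19 to 9.77 in lymphomas. No marker (0) of these lists other than macrophages was called by limma. Before adjustment, those at p under 0.05 were 6 of 8 neutrophil, 2 of 7 plasma cell, 1 of 6 granulocyte precursor, 1 of 7 megakaryocyte and 1 of 9 endothelial and stromal markers as higher (6.69% of all genes). As lower there were 3 of 9 B-cell, 3 of 9 T-cell, 2 of 6 germinal centre and 1 of 9 endothelial and stromal markers (8% of all genes). The part of these cell types in the mitosis signal was not tested.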

How the data were processed

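Total RNA from 5 splenic lymphomas and 4 wild-type spleens was labelled with biotin and hybridised to 1-colour Affymetrix arrays. The log2 values were made by the authors with RMA, per the submitters' processing notes; the sources used here give no version or settings. RMA subtracts background, equalizes the arrays and compresses differences near the background. Values were used as deposited (45101 probe sets, 64 controls left out of the tests, 45037 tested).

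Gene names came from the platform annotation: 34958 probe sets had 1 symbol, 932 several and 9211 none, and only the first kind was named. Each of 18193 genes was represented by its probe set with the highest mean. The test was limma 3.58.1 under R 4.3.3 on all 9 arrays (lymphoma minus wild-type, two-sided, without covariates or a dim filter). Benjamini-Hochberg adjustment ran over all genes, with a threshold of 0.05, and the script was tested on simulated data. The members, lists, rules and alternatives were chosen with earlier results of these data known, and the promoter motifs after the expression values were seen. All 40 members are named. Array by array values are given for the member with the highest mean in each role, for Mki67 and Top2a, and for the 3 largest and 3 smallest differences. Ranges or single-array values of Cenpf, Dlgap5, Cdk1, Nusap1, Aspm, Hmmr and Aurka, and Foxm1, Pttg1 and Cep55, were added after their values were seen. The values given for single arrays of Aurkb, Birc5, Ttk, Bub1b, Anln and Ndc80 are outside this rule as well. Promoter sequences are from RefSeq (GRCm38.p6). Alternatives were a dim filter, median centring, repeated quantile normalization, an intensity trend, array weights, a robust prior, the replicate number as a block, a test with unequal variances, other probe sets per gene, the erythroid marker mean as a covariate, and leaving out arrays. Python 3.11.15 and matplotlib 3.10.9 drew the figures.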

Additional observations from a re-analysis of the deposited data

Results flagged for a closer look

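In 1 group of the 80 examined (40 genes in 2 groups) a sample lay far from the others: Kif22 in wild-type spleen 2, at 10.59, where wild-type spleens 1, 3 and 4 stood at 10.84, 10.83 and 10.86. Its gap to the nearest of them was 0.92 of the group's range. Chance alone picks out about 1 in 20 groups. No lymphoma (0) was picked out for any of the 40 genes. The rule weighs only the gap from an outermost value to its nearest neighbour. It therefore cannot pick out arrays that stand apart together, as lymphomas 1 and 2 did, and those arrays also widen the range for lymphoma 4. The count of 0 does not mean that the lymphomas were alike.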

How the results depend on the processing

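Limma or the unequal-variance test called 0 of the mitosis genes in the main setting and in all 23 alternatives, and 0 of the 70 further mitosis genes and 0 of the 87 probe sets of the mitosis genes wherever those were run. The count over all genes was 130, and 532 with array weights, 0 with the unequal-variance test (2384 at an unadjusted p under 0.05), 7 with the replicate block, 601 without lymphomas 1 and 2 and 216 without wild-type spleen 1 as well. It ran from 10 to 328 with 1 array left out (10 without wild-type spleen 2, 328 without lymphoma 2). Mitosis genes at an unadjusted p under 0.05 numbered 2, and 1 with array weights, the unequal-variance test, the mean of all probe sets or only probe sets without an _s, _x or _a suffix, 15 with the erythroid covariate (37.5%, where 14.4% of all genes were) and 7 without lymphomas 1 and 2 (17.5%, where 18.9% of all genes were). With 1 array left out they numbered 1 to 7 (7 without lymphoma 4, or 17.5%, where 17.2% of all genes were). The median difference, 0.40, was 0.010 with array weights (20 positive, 20 negative), -0.35 with the erythroid covariate, -0.39 without lymphomas 1 and 2 and -0.32 without wild-type spleen 1 as well. With 1 array left out it ran from 0.090 (without lymphoma 1) to 0.80 (without lymphoma 4). Without lymphoma 1 alone 27 of 40 differences were positive and without lymphoma 2 alone 29. The replicate number as a block, in which lymphoma 5 has no partner and drops out, left 0 members called. Correlations of same-numbered samples in the check for pairing were 0.12, -0.20, 0.14 and 0.0041. These are not correlations of whole arrays, which lay between 0.964 and 0.997 for any 2 arrays. The labels do not say whether the numbers pair the samples, and so few correlations cannot settle it. No difference of a mitosis gene passed in any of these settings, but many changed sign; the cause was not tested. Without lymphomas 1 and 2 the negative ones were Ccna2 -0.31, Ccnb2 -0.48, Cdk1 -0.33, Cdca3 -0.14, Plk1 -0.39, Aurka -0.32, Melk -0.20, Pbk -0.41, Aurkb -0.50, Birc5 -0.46, Cdca8 -0.29, Bub1 -0.92, Bub1b -0.39, Ttk -0.50, Cdc20 -0.34, Ube2c -0.29, Cenpa -0.15, Cenpe -0.69, Cenpf -0.79, Ndc80 -0.36, Nuf2 -0.64, Spc24 -0.28, Spc25 -0.33, Kif11 -0.46, Kif20a -0.37, Kif22 -0.19, Kif23 -0.61, Kif4 -0.64, Tpx2 -0.67, Nusap1 -0.59, Aspm -0.53, Dlgap5 -0.14, Hmmr -0.34, Prc1 -0.39, Anln -0.43, Top2a -0.55 and Mki67 -0.48. Leaving out wild-type spleen 1 too gave Ccna2 -0.15, Ccnb2 -0.39, Cdk1 -0.24, Cdca3 -0.011, Plk1 -0.35, Aurka -0.28, Melk -0.12, Pbk -0.26, Aurkb -0.42, Birc5 -0.36, Cdca8 -0.12, Bub1 -0.79, Bub1b -0.36, Ttk -0.39, Cdc20 -0.34, Ube2c -0.18, Cenpa -0.091, Cenpe -0.63, Cenpf -0.67, Ndc80 -0.29, Nuf2 -0.57, Spc24 -0.25, Spc25 -0.27, Kif11 -0.37, Kif20a -0.29, Kif22 -0.17, Kif23 -0.58, Kif4 -0.60, Tpx2 -0.60, Nusap1 -0.48, Aspm -0.43, Dlgap5 -0.11, Hmmr -0.28, Prc1 -0.32, Anln -0.39, Top2a -0.47 and Mki67 -0.31. The erythroid covariate gave Ccna2 -0.28, Ccnb2 -0.42, Cdk1 -0.29, Cdca3 -0.15, Plk1 -0.34, Aurka -0.24, Melk -0.23, Pbk -0.36, Aurkb -0.46, Birc5 -0.44, Cdca8 -0.27, Bub1 -0.90, Bub1b -0.37, Mad2l1 -0.0015, Ttk -0.45, Cdc20 -0.30, Ube2c -0.25, Cenpa -0.097, Cenpe -0.63, Cenpf -0.79, Ndc80 -0.30, Nuf2 -0.60, Spc24 -0.21, Spc25 -0.26, Kif11 -0.41, Kif20a -0.38, Kif22 -0.17, Kif23 -0.55, Kif4 -0.59, Tpx2 -0.66, Nusap1 -0.54, Aspm -0.52, Dlgap5 -0.089, Hmmr -0.30, Prc1 -0.33, Anln -0.35, Top2a -0.54 and Mki67 -0.49. Array weights gave Ccnb2 -0.011, Plk1 -0.065, Aurkb -0.15, Bub1 -0.41, Bub1b -0.045, Ttk -0.069, Cenpe -0.25, Cenpf -0.21, Ndc80 -0.14, Nuf2 -0.23, Spc24 -0.0014, Kif11 -0.063, Kif20a -0.055, Kif23 -0.28, Kif4 -0.26, Tpx2 -0.25, Nusap1 -0.089, Aspm -0.051, Top2a -0.13 and Mki67 -0.022. Without _s, _x and _a probe sets, for which 33 of 40 genes remained, Cdca3 was at -0.032. With 1 array left out, the genes whose sign changed ranged as follows: Bub1 -0.28 to 0.66, Kif23 -0.24 to 0.26, Plk1 -0.026 to 0.59, Aurkb -0.065 to 0.57, Bub1b -0.064 to 0.55, Cdc20 -0.040 to 0.63, Cenpe -0.22 to 0.52, Cenpf -0.11 to 0.99, Ndc80 -0.059 to 0.36, Nuf2 -0.13 to 0.62, Kif4 -0.14 to 0.59, Tpx2 -0.17 to 0.64, Top2a -0.045 to 0.75 and Kif20a -0.0024 to 0.60. The arrays carry no count behind a value, so the number of arrays and the background level limit what they can show.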

Other observations

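Among the further mitosis genes Foxm1, Pttg1 and Cep55 departed in part from the common order or moved less. The genes given here were chosen after their values were seen. Foxm1, a transcription factor that activates mitosis genes, moved little, with log2 levels of 8.07, 8.05, 8.10 and 8.09 in wild-type spleens 1 to 4 and 8.35, 8.33, 7.95, 8.01 and 8.10 in lymphomas 1 to 5, although lymphomas 1 and 2 were again the highest. Mybl2, the B-Myb factor that acts with it, moved more and kept the common order. It had 7.54, 7.28, 7.41 and 7.35 in wild-type spleens and 9.05, 8.72, 7.21, 6.62 and 7.75 in lymphomas. Pttg1, securin, had 12.95, 12.85, 12.04 and 12.15 in wild-type spleens and 13.57, 13.24, 12.86, 12.89 and 11.89 in lymphomas, so that lymphoma 4 was within the wild-type range and lymphoma 5 the lowest array. Cep55, an abscission protein, had 9.28, 8.59, 9.26 and 8.80 and 9.26, 9.60, 8.83, 7.83 and 8.63, with lymphoma 1 inside the wild-type range. Limma called none of these 4 genes (0), with none (0) at an unadjusted p under 0.05.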
